A study of Rattus norvegicus with 10 samples.

Results

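The zinc finger genes of the rat lung are described here in animals with and without Cmg2, the gene for the matrix-binding anthrax toxin receptor ANTXR2. A gene was taken as a member when the words zinc finger stood in its description in the authors' table, or when its symbol began with Zfp, Znf, Zbtb, Zscan or Zkscan and a digit. The rule found 27 of the 1319 genes in the table. All 27 were found by description and 11 also by symbol. RNA sequencing was run on whole lung of 8-week-old Sprague Dawley rats, 5 libraries from wild-type rats labelled WT and 5 from rats labelled Cmg2-KO. All libraries came from the same strain, tissue and age, and the labels name no treatment. The sources used here do not say how the allele was made, or whether each library came from its own animal, and p-values given here weigh a difference against the spread of these 5 and 5 libraries, which may be technical.

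The values are scaled counts, that is, reads counted per gene and put on a common scale by the authors with a single factor for each library. The table was already selected. It holds only genes with an unadjusted p under 0.05 for this contrast from the authors, 6.63% of the 19894 genes behind their adjustment, so each member had to differ to be present. No count of members is therefore evidence of a change in zinc finger genes as a whole. RefSeq names 545 rat genes with such symbols, of which 11, or 2.02%, are in the table, and which of the others were measured is not known. The listed genes took between 1289524 and 1620198 reads per library. Total depth is unknown. The targeted gene was not analysed here, so its transcript gives no check of the genotype labels. Of the lung cell type markers looked for, only those in the selected table could be read. The alveolar type 2 list had 1 of 8 genes there (Sftpb, at 42133 to 65237 scaled counts over all libraries), and the club and secretory list 4 of 8.

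A zinc finger is a short stretch of protein folded around a zinc ion held by cysteine and histidine residues. Repeated C2H2 fingers read DNA bases in order, and form the largest family of mammalian transcription factors, many of which repress through a KRAB or BTB domain beside the fingers. CCCH fingers bind RNA, DHHC proteins attach palmitate to other proteins, and FYVE, MYND and SWIM fingers mostly bind lipids or proteins. The members share a name and the binding of zinc, and not a pathway.

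The authors' table assigns 13 of the 27 genes to the zf-C2H2 transcription factor family, 3 to the ZBTB family and 11 to no such family. Promoters of the 3 ZBTB genes, the one of these groups whose members all had lower means in Cmg2-KO, and of Zc3hav1, the member with the lowest limma p-value, are printed from RefSeq (GRCr8), 250 bases before to 50 after the gene start, 5′ to 3′. Capitals mark 4 motifs searched on either strand. The GC box was searched as GGGCGG and the box bound by the factor NF-Y as CCAAT. The site of ETS factors was searched as CCGGAAG, and the E-box was searched with the letters CACGTG. None of these matches overlaps another, and the Zbtb25 window has none.

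Zbtb25, chr6:100819643-100819942, minus strand: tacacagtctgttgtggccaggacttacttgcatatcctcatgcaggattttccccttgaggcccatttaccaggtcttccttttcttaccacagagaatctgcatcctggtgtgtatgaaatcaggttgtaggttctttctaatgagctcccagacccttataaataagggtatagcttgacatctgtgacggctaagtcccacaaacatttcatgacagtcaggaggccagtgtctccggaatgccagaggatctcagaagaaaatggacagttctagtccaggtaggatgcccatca

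Zbtb33, chrX:121828835-121829134, plus strand: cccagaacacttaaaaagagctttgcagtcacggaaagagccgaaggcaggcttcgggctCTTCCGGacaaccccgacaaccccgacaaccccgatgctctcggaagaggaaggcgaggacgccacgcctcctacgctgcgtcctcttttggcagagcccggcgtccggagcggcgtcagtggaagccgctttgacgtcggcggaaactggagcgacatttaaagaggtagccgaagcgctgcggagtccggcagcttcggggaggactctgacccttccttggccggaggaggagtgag

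Zbtb49, chr14:76802756-76803055, plus strand: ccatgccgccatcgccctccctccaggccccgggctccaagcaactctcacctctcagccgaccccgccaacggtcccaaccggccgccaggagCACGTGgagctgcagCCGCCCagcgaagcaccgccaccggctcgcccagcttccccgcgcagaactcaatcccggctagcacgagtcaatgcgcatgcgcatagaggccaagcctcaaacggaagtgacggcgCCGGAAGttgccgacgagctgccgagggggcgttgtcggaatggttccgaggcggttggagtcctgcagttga

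Zc3hav1, chr4:68029304-68029603, minus strand: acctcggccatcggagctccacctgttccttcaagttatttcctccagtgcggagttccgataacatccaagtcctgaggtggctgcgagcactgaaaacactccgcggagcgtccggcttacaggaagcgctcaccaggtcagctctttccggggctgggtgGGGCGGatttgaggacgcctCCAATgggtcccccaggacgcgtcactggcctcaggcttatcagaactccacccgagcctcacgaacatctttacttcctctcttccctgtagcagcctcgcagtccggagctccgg

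The RefSeq table used here gave a promoter for 15 of the 27 members. GGGCGG was present in 9 of these 15 genes, against 33.1% of 33465 rat promoter windows of 300 bases, and CCAAT in 4, against 37.5%. CCGGAAG was present in 4, among them Zbtb33 and Zbtb49, against 8.75% of all windows. CACGTG was found in 1 member, Zbtb49, against 6.42%. A member was counted if any of its windows had the match, while the shares are of single windows. Zfp185, among the 9 with GGGCGG, had several windows. In Zbtb49 the CCGGAAG match starts 23 bases before the gene start, and in Zbtb33 it starts 190 bases before. The median GC content of the members' 17 windows was 62.3%, against 51.7% over all windows. The Zbtb25 window had 2 CpG dinucleotides and the Zbtb49 window 31. Such matches describe letters in a window only.

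Differences between the genotypes were small for most zinc finger genes. Means were higher in Cmg2-KO for 16 genes and lower for 11, or 59.3% higher, against 48.2% of the listed genes. Fold changes are given as log2 differences between Cmg2-KO and WT after adding 1 to each scaled count, so those of scarce genes are understated. Their median was 0.19, against -0.15 over the 1308 genes tested. The median size of the change was 0.34, against 0.47. In limma, a linear model fitted to all genes at once, 0 of 27 members had an adjusted p under 0.05, where 0.229% of all genes tested did, and adjusted values ran from 0.727 to 1. An unadjusted limma p under 0.05 was found for 21 members, against 79.1% of all genes tested, and for 12 with quantile normalization or without Cmg2-KO 5, where the share of all genes tested was 56.3% and 54.8%. With count tests on the recovered reads of 9 libraries, edgeR and DESeq2 also called 0 members at an adjusted p under 0.05 (0.0765% and 3.75% of genes), and 17 and 19 at an unadjusted p under 0.05 (64.0% and 71.7%). In the authors' deposited table, 1 member had an adjusted p under 0.05, LOC102551539, which was higher in Cmg2-KO, against 5.46% of the listed genes in either direction and 3.11% higher.

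The libraries of the 2 genotypes overlapped for every member. In 0 members were the genotypes fully apart, where 16.3% of listed genes were. The count was 2 with TMM scaling, where 16.9% of listed genes were apart, and 3 with quantile normalization, where 12.7% were. With a single library left out it was 1 to 6, where 20% to 25.9% of listed genes were apart, and the 6 came without WT 3 (23.3%). Each genotype had 4 of its 5 libraries beyond the whole of the other for 2 members, Zfp287 and Zc3hav1. How many listed genes met this was not counted, so it does not set these 2 apart from the table. At least 4 libraries of either genotype lay beyond the whole of the other for 22 members, against 70.8% of listed genes. In most members 1 or a few libraries bridged the groups, and these were not the same libraries each time.

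**Figure D1:**
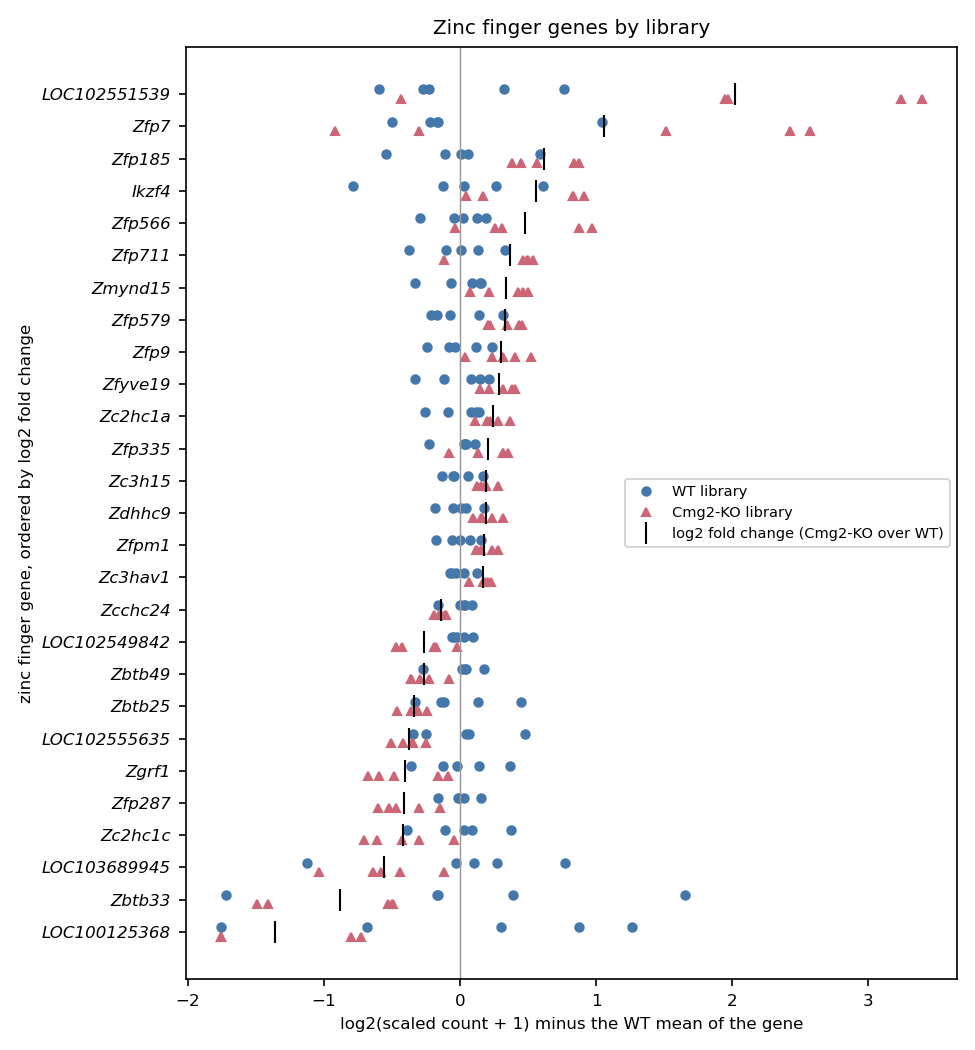
Each row is 1 of the 27 zinc finger genes; points are libraries (5 WT as circles, 5 Cmg2-KO as triangles), placed by log2(scaled count + 1) minus the gene's WT mean, and the black bar is the log2 fold change. The bars run from -1.36 for LOC100125368 to 2.02 for LOC102551539, and the symbols of the 2 genotypes overlap in every row.

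The size of a change went with the level of the gene, in the members as in the whole table. The table was selected by p-value, and scarce, noisier genes need a larger change to be listed. This relation is thus not a result about the members. The 7 members with a mean of at least 500 scaled counts had log2 fold changes between -0.14 and 0.24, and 6 of them were higher. Of all tested genes at that level, 292 of 437 (66.8%) were higher. Between 20 and 500 scaled counts, 9 of 17 members were higher, against 40.1% of all tested genes. The 3 members under 20 scaled counts, LOC102551539, LOC100125368 and Zbtb33, included the largest changes in each direction.

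**Figure D2:**
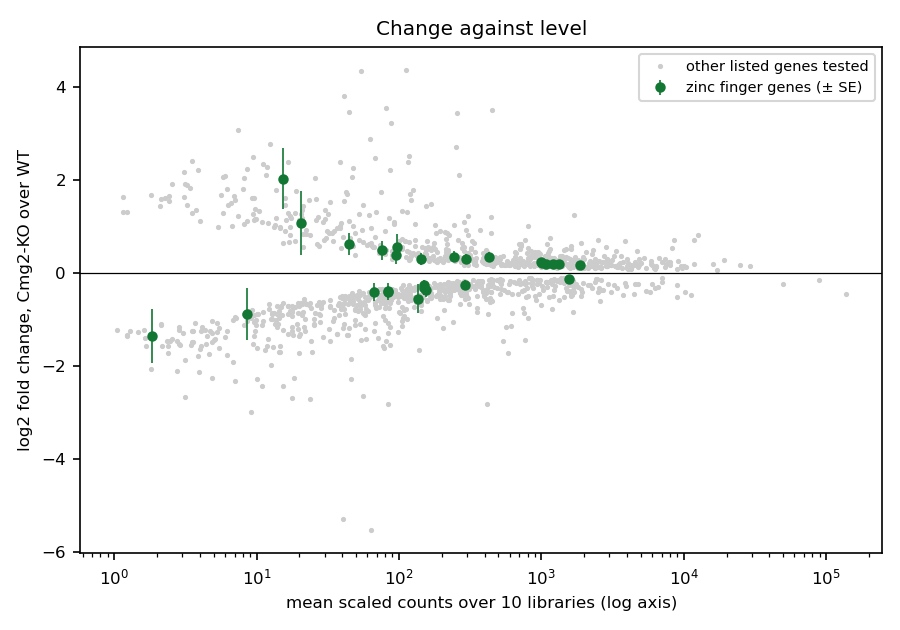
Log2 fold change (Cmg2-KO over WT) against mean scaled counts over 10 libraries on a log axis, for zinc finger genes (filled, with limma SE) and the other listed genes tested (grey). The empty band around 0 comes from the selection of the table, and the abundant zinc finger genes sit at its edge, between -0.14 and 0.24.

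The C2H2 genes held the extremes. LOC102551539 (ENSRNOG00000048864), described as a Znf709-like gene, was at 5.08, 7.26, 2.22, 3.03 and 3.16 scaled counts in WT 1 to 5 and at 2.61, 50.1, 44.9, 18.0 and 17.7 in Cmg2-KO 1 to 5. All WT libraries and Cmg2-KO 1 were low, and the other 4 Cmg2-KO libraries were above every WT library. Group means were 4.15 ± 2.03 and 26.6 ± 20.1 (SD, n = 5), with a log2 change of 2.02 ± 0.66 (SE; limma, adjusted p = 0.781). The authors' deposited table gives it a log2 fold change of 2.68 and an adjusted p of 0.0378. The counts behind these means were 20 reads over the WT libraries and 139 over the Cmg2-KO libraries, a ratio of 6.32 after scaling for library size (95% exact binomial interval 3.94 to 10.7, counting error only). Read totals and ratios here include WT 4, which the count tests left out, and the ratio was 5.9 without it (3.55 to 10.4).

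LOC100125368 (ENSRNOG00000043289), described only as a zinc finger protein, was the lowest of the members and had the most negative log2 fold change. It was at 7.11, 5.19, 1.11, 0 and 3.16 scaled counts in WT 1 to 5, and at 0, 0, 1.04, 0.945 and 0 in Cmg2-KO 1 to 5. WT 4 had no read, and WT 3, Cmg2-KO 3 and Cmg2-KO 4 had 1 read each, so WT 3 and WT 4 could not be told from the Cmg2-KO libraries. The totals were 16 reads in WT and 2 in Cmg2-KO, a ratio of 8.8 after scaling for library size. The 95% exact binomial interval was 2.07 to 78.9, for counting error only and not the spread between libraries. Without WT 4 the ratio was 11.1 (2.61 to 99.4). In limma the log2 change was -1.36 ± 0.58 (SE, adjusted p = 0.895).

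These 2 genes lie side by side among the members. Both are on chromosome 7, minus strand, LOC102551539 from 10498064 to 10500392 and LOC100125368 from 10894119 to 10896447 in the authors' coordinates, whose build is not stated. The gap is 394 kb and holds no other listed gene. Both gene models span 2329 bases and both have a length of 1503 bases in the table. Genes of like sequence can share reads, but the sequences of these 2 were not compared. How the authors counted shared reads is not given in the sources used here, so the level of each gene is uncertain. All Cmg2-KO libraries held 0 or 1 read of LOC100125368, and all WT libraries were low for LOC102551539. The group means of the 2 genes thus went in opposite directions, though neither gene passed limma's adjusted threshold. Both were selected for a difference, and libraries of the 2 genotypes overlapped for each. With genotype means removed, the pair had a correlation of 0.35 over 10 libraries. Whether the 2 genes exchanged reads was not tested.

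Zfp7 and Zfp566 varied most within Cmg2-KO among the other C2H2 genes. Zfp7 was at 8.13, 6.22, 7.77, 8.09 and 20 scaled counts in WT 1 to 5 and at 53.9, 4.39, 28.2, 59.6 and 7.28 in Cmg2-KO 1 to 5. Cmg2-KO 1, 3 and 4 were above every WT library, while Cmg2-KO 2 and 5 were within or below the WT range. The log2 fold change was 1.06 ± 0.69 (SE; limma, adjusted p = 1), and 0.68 without Cmg2-KO 4. Zfp566 was at 71.1, 60.2, 63.3, 67.8 and 50.5 in WT 1 to 5 and at 74.7, 123, 77.3, 60.5 and 115 in Cmg2-KO 1 to 5. Here the high libraries were Cmg2-KO 2 and 5, the ones low for Zfp7, and WT 5, the WT library high for Zfp7, was the lowest. With genotype means removed, the log2 values of the pair had a correlation of -0.94 over 10 libraries, the most negative of 351 pairs of members, picked after the values were seen and given as a description. Zfp7 is on chromosome 7 (118490345 to 118497077) and Zfp566 on chromosome 1 (88415257 to 88428685).

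**Figure D3:**
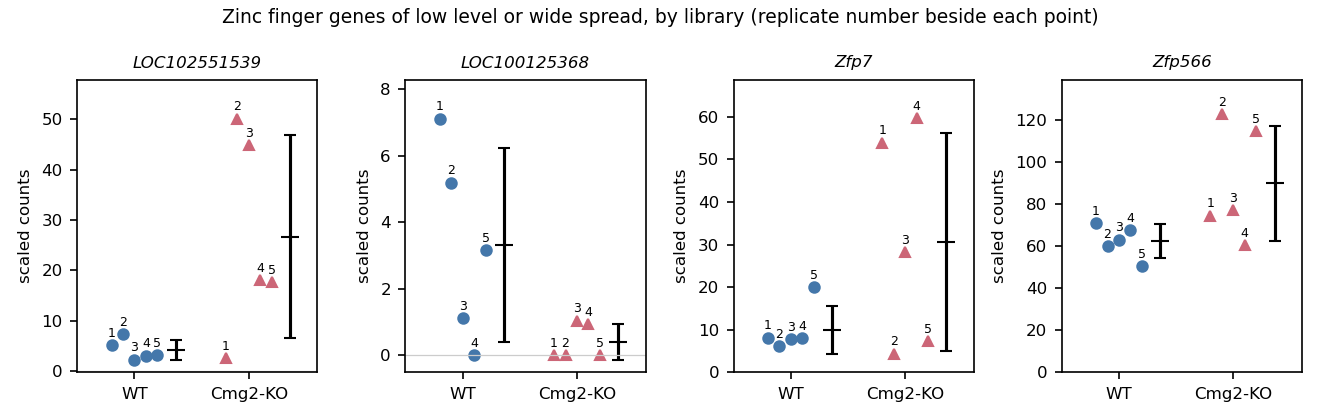
Scaled counts of 4 C2H2 genes in each library, numbered by replicate, with the mean and SD of each genotype as a black bar. LOC102551539 is high in Cmg2-KO 2 to 5 and low in Cmg2-KO 1 at 2.61, and Cmg2-KO 2 and 5, at 4.39 and 7.28 for Zfp7, are the highest for Zfp566.

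The other C2H2 genes with higher means in Cmg2-KO showed smaller differences. Zfpm1, also called FOG-1, a cofactor of GATA transcription factors in blood cell formation, was at 1133, 1091, 1264, 1196 and 1006 scaled counts in WT 1 to 5 and 1238, 1233, 1336, 1377 and 1261 in Cmg2-KO 1 to 5. WT 3 overlapped the Cmg2-KO range. Its log2 fold change was 0.18 ± 0.07 (SE; limma, adjusted p = 0.817). Zfp335, which acts with histone H3 lysine 4 methyltransferase complexes, averaged 944 ± 81.1 in WT against 1093 ± 131 (SD, n = 5) in Cmg2-KO. Cmg2-KO 3, at 889, was below 4 of the WT libraries, and the other Cmg2-KO libraries were above all of them.

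Zfp579 was at 338, 360, 472, 418 and 327 in WT 1 to 5 and 442, 514, 482, 437 and 521 in Cmg2-KO 1 to 5, with only WT 3 inside the Cmg2-KO range. Its log2 fold change was 0.33 ± 0.11 (SE; limma, adjusted p = 0.781). Ikzf4, which encodes Eos, a factor of regulatory T cells, averaged 78.9 ± 26.7 in WT and 114 ± 30.8 in Cmg2-KO. Its log2 fold change of 0.56 was 0.36 without WT 5, the lowest library at 43.1. Zfp711, an X-linked transcriptional activator gene, stood at 63.3 to 104 in WT and at 114 to 120 in 4 Cmg2-KO libraries, with Cmg2-KO 5 at 75.9. Zfp9 averaged 128 ± 16.8 and 158 ± 20.

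Lower C2H2 genes were Zfp287 and 3 provisional LOC models. Zfp287 was at 106, 97.5, 94.3, 84.9 and 94.7 scaled counts in WT 1 to 5 and at 66.1, 62.4, 77.3, 86.0 and 68.6 in Cmg2-KO 1 to 5. WT 4 and Cmg2-KO 4 crossed by about 1 scaled count, and all other libraries were apart. The log2 fold change was -0.41 ± 0.13 (SE; limma, adjusted p = 0.769). LOC102549842, described as Znf91-like, averaged 314 ± 14.2 in WT and 264 ± 35.0 in Cmg2-KO, and its WT libraries had the smallest relative spread of any member, 4.51% of the mean. LOC102555635, described as Zfp39-like, averaged 177 ± 41.7 and 134 ± 9.02, with WT 5 highest at 243. Of the 5 members with LOC symbols 4 were lower, and of the 22 with other symbols 7, against 51.8% of all listed genes. The share among listed LOC symbols outside the members was not counted.

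The 3 BTB members, whose proteins pair through the BTB domain and mostly recruit corepressors, all had lower means in Cmg2-KO, against 51.8% of listed genes. Zbtb25 was at 152, 228, 183, 154 and 133 scaled counts in WT 1 to 5 and at 130, 134, 135, 141 and 121 in Cmg2-KO 1 to 5. The Cmg2-KO libraries lay close together, and only WT 5 fell among them. The log2 fold change was -0.34 ± 0.14 (SE; limma, adjusted p = 0.895), and -0.22 without WT 2. Zbtb49, reported to activate the cell cycle inhibitor gene Cdkn1a, was at 184, 167, 135, 165 and 168 in WT 1 to 5 and at 154, 127, 127, 139 and 133 in Cmg2-KO 1 to 5. WT 3 fell within the Cmg2-KO range, and the log2 fold change was -0.26 ± 0.11 (SE; limma, adjusted p = 0.875).

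Zbtb33, which encodes Kaiso, a protein that binds methylated CpG sites, was scarce, with 58 reads over the WT libraries and 25 over the Cmg2-KO libraries. It was at 8.13, 12.4, 31.1, 8.09 and 2.1 in WT 1 to 5 and at 6.08, 2.64, 6.27, 2.84 and 6.24 in Cmg2-KO 1 to 5. WT 3 was the highest and WT 5 the lowest of all 10 libraries. The log2 change of -0.88 ± 0.56 (SE; limma, adjusted p = 1) was -0.47 without WT 3. The 3 BTB genes did not vary together within genotypes, with correlations of 0.55, -0.25 and -0.45 for the 3 pairs over 10 libraries. Of 12 BTB corepressor genes, 2 were in the table, Tbl1x and Rcor1, both with higher means in Cmg2-KO and neither with a limma adjusted p under 0.05. Their log2 fold changes were 0.15 ± 0.06 and 0.17 ± 0.07 (SE). Of 20 genes for KRAB repression, Trim28 and Setdb1 among them, 0 were in the table.

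**Figure D4:**
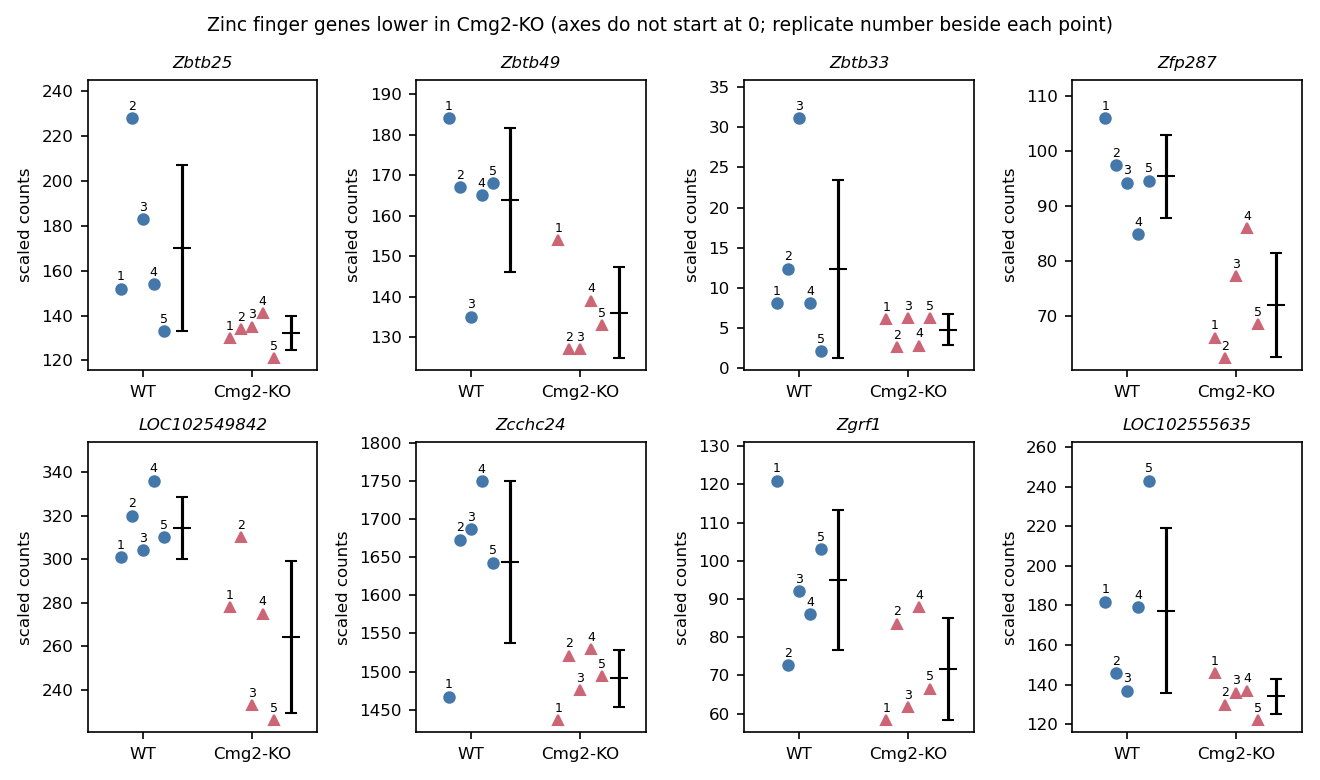
Scaled counts of 8 zinc finger genes with lower means in Cmg2-KO, by library with replicate numbers, and the mean and SD of each genotype as a black bar; the axes do not start at 0. In each panel at least 1 library bridges the genotypes, such as WT 3 at 135 for Zbtb49 and Cmg2-KO 4 at 86.0 for Zfp287.

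The RNA-binding CCCH members were both abundant and both slightly higher in Cmg2-KO. Zc3hav1 (ENSRNOG00000013948), which encodes ZAP, an antiviral protein that binds CpG-rich viral RNA, was at 1794, 1692, 1918, 1724 and 1675 scaled counts in WT 1 to 5 and at 2002, 2060, 1844, 1976 and 2025 in Cmg2-KO 1 to 5. Only WT 3 and Cmg2-KO 3 crossed. The log2 fold change was 0.17 ± 0.05 (SE; limma, adjusted p = 0.727), the lowest adjusted p of the 27 members. Zc3h15, whose protein stabilises the GTPase Drg1, was at 1124, 911, 1041, 965 and 969 in WT 1 to 5 and at 1092, 1213, 1140, 1112 and 1136 in Cmg2-KO 1 to 5. WT 1 was the only WT library in the Cmg2-KO range, and the log2 fold change was 0.19 ± 0.06 (SE; limma, adjusted p = 0.781). Per kb of gene model, Zc3h15 had the highest level of the 27 members, 532 scaled counts over all libraries, followed by Zdhhc9 at 448 and Zfpm1 at 393.

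Zdhhc9, an X-linked palmitoyltransferase that modifies Ras proteins, was at 1269, 1087, 1187, 1241 and 1395 in WT 1 to 5 and at 1531, 1379, 1449, 1374 and 1319 in Cmg2-KO 1 to 5. WT 5 overlapped the Cmg2-KO range, and the log2 fold change was 0.19 ± 0.07 (SE; limma, adjusted p = 0.809). Zfyve19, a FYVE protein of the checkpoint that delays the last step of cell division, averaged 268 ± 39.6 and 327 ± 25 (SD, n = 5). Zmynd15, a MYND protein known as a repressor in male germ cells, averaged 216 ± 28.8 and 272 ± 33.4. Zfp185, which despite its symbol encodes a LIM domain protein of the actin cytoskeleton, was at 31.5, 34.2, 35.5, 51.6 and 23.1 in WT 1 to 5 and at 46.9, 51.0, 61.6, 63.3 and 44.7 in Cmg2-KO 1 to 5, with only WT 4 in the Cmg2-KO range. Its log2 change of 0.62 ± 0.23 (SE; limma, adjusted p = 0.808) was the third highest of the members.

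**Figure D5:**
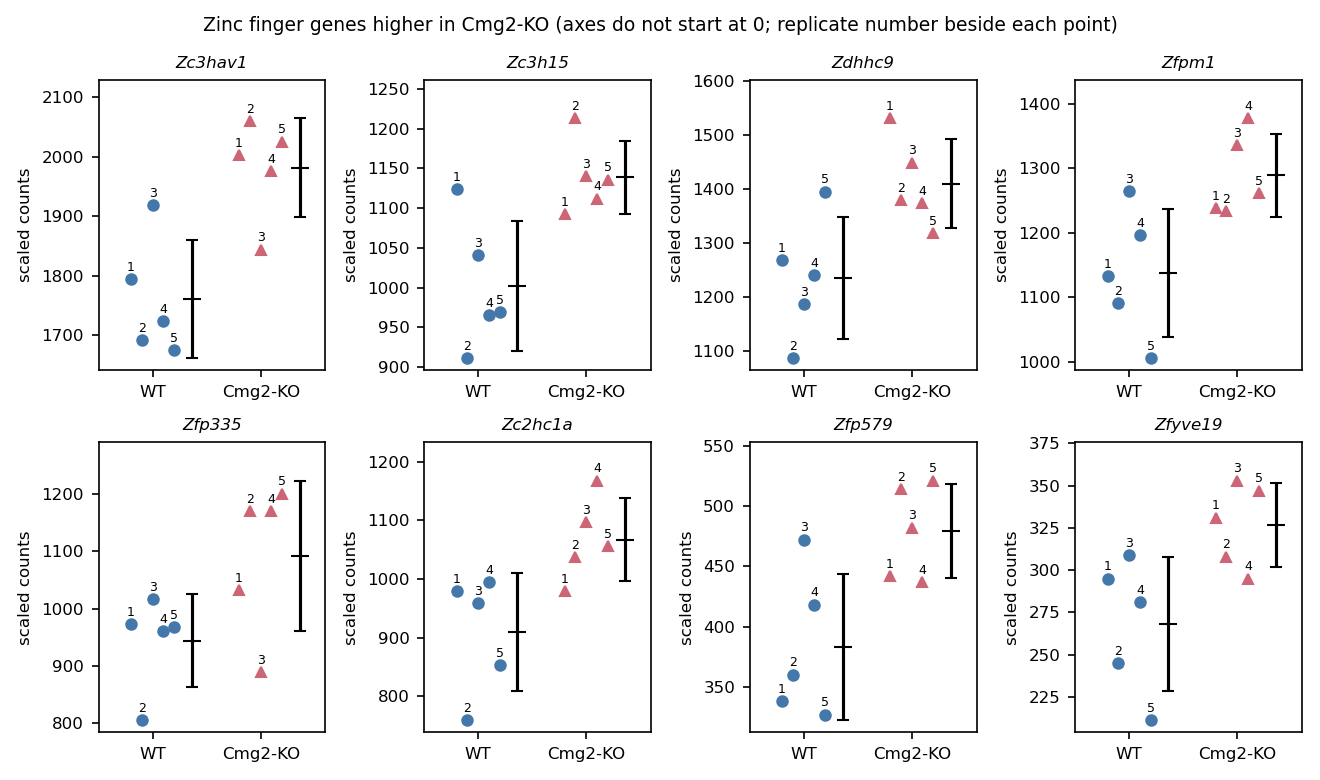
Scaled counts of 8 zinc finger genes with higher means in Cmg2-KO, by library with replicate numbers, and the mean and SD of each genotype as a black bar; the axes do not start at 0. Cmg2-KO 3 is the lowest Cmg2-KO library for Zc3hav1 at 1844 and for Zfp335 at 889, and Cmg2-KO 4 for Zfp579 at 437 and Zfyve19 at 295.

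The C2HC and CCHC genes, with short zinc knuckles, went both ways. Zc2hc1a averaged 909 ± 101 and 1067 ± 70.4 (SD, n = 5), and 4 Cmg2-KO libraries were above every WT library. Its relative Zc2hc1c averaged 76.1 ± 14.8 and 56.7 ± 10.7. Zcchc24 was at 1467, 1673, 1687, 1750 and 1643 in WT 1 to 5 and between 1436 and 1529 in Cmg2-KO, so that WT 1 alone lay in the Cmg2-KO range. Its log2 fold change was -0.14 ± 0.05 (SE; limma, adjusted p = 0.861). Zgrf1, whose protein helps to repair DNA, averaged 94.9 ± 18.2 and 71.6 ± 13.3. LOC103689945, a SWIM model similar to Zswim8, a part of the ubiquitin ligase that drives target-directed microRNA decay, was at 261, 69.5, 185, 164 and 150 in WT 1 to 5 and 73.9, 97.5, 141, 112 and 102 in Cmg2-KO 1 to 5. WT 2 was the lowest of all 10 libraries and WT 1 the highest. Its log2 fold change of -0.56 was -0.85 without WT 2 and -0.37 without WT 1.

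With genotype means removed, most pairs of members had low correlations. The median over 351 pairs was 0.1, against 0.01 over all pairs of listed genes, across 10 libraries that share their depth and scaling. The 3 highest pairs all had 0.86, namely LOC102555635 with Zdhhc9, Zmynd15 with Ikzf4, and Zc2hc1a with LOC103689945. The median difference of the 27 genes from the WT mean was positive in each Cmg2-KO library, between 0.07 and 0.16 on the log2 scale. Of these genes, all selected for a difference, 16 had higher means. No such median by library was taken for the other listed genes, so a shift particular to the members is not shown. The 4 members on chromosome X were Zbtb33, Zfp711, Zdhhc9 and Zfp185, of which 3 were higher, as were 34 of 49 tested genes of that chromosome.

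Zinc-dependent factors outside the rule are given beside the 6.63% of all the authors' genes that were in the table. Of 41 C2H2 or Gata factors, with the Kruppel-like, Sp and Egr families among the C2H2 ones, 1 was listed, Wt1. Its mean was 79.3 ± 31.3 in WT against 120 ± 25.4 (SD, n = 5) in Cmg2-KO. Of 43 nuclear receptors 3 were listed, Nr2f6 and Nr5a2 with higher means and Esr1 with a lower one. Esr1, the estrogen receptor alpha gene, averaged 60.8 ± 10.8 and 40.1 ± 17.6. Of 31 genes for zinc handling, which hold the metallothioneins and the Slc30 and Slc39 zinc transporters, 0 were listed. No gene of these lists passed limma's adjusted threshold, or that of the authors' deposited table.

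Listed marker genes of other cell types and listed clock genes also differed in summed level, and 0 of these genes passed limma's adjusted threshold. Each listed gene had to differ to be in the table, and markers outside it are in no sum. The sums are thus no independent sign of a change in a cell type. Listed smooth muscle genes (9 of 10) summed to 30622 to 50316 scaled counts in WT and 25352 to 37719 in Cmg2-KO, all lower on average. Listed mesothelial genes (6 of 10, all higher), which include Wt1, summed to 3166 to 5676 in WT and 3777 to 6966 in Cmg2-KO. Listed B and plasma cell genes (3 of 7, all higher) summed to 5306 to 8782 in WT and 7419 to 11126 in Cmg2-KO. Listed club and secretory genes (4 of 8, all lower) summed to 144340 to 196851 in WT and 84396 to 176966 in Cmg2-KO. Nearly all of that sum was Scgb1a1, at 143906 to 195238 in WT and 84205 to 175952 in Cmg2-KO. Listed fibroblast genes (2 of 6, both lower, Dcn and Pi16) summed to 1957 to 5256 in WT and 1509 to 2669 in Cmg2-KO. Listed circadian clock genes (5 of 15, all lower) summed to 2007 to 6273 in WT and 1495 to 2473 in Cmg2-KO. The endothelial list had 1 of 7 genes in the table, Tie1, which was lower, and the ciliated, alveolar type 1, T and natural killer cell, macrophage and neutrophil lists had 0. The part of these genes in the values of the zinc finger genes was not tested. In bulk lung, fewer cells of a type and less RNA per cell cannot be told apart.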

How the data were processed

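Lung was flash frozen and libraries for Illumina sequencing were built with an NEBNext Ultra kit, per the labels' protocols. The kit name does not say that strand was kept, so overlapping and antisense genes may share reads. HISAT2 2.0.5 and featureCounts 1.5.0-p3 are named in the submitters' processing notes. The sources used here give neither build nor annotation, nor the tool behind the authors' p-values. The deposited library columns hold a signal, the authors' counts divided by 1 size factor per library: 100% of values were whole multiples of 1 read within 0.02 reads. WT 4 did not pass a separate check of recovered reads and stayed out of the count tests, which used 9 libraries. The deposited table also gives the authors' log2 fold change, a fold (ratio) and p-values before and after adjustment. Per the file headers it also gives gene length and other annotation, a description of the gene model.

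limma 3.58.1 (trend, robust; R 4.3.3) was run on log2(scaled count + 1) over the 1308 of 1319 genes above 0.5 in at least 5 libraries, all 27 members among them. Benjamini-Hochberg adjustment was over 19894 genes, with genes absent from the table taken as above the threshold, and 6 listed adjusted p-values of the authors are not given by that number. Alternatives covered pseudocount, filter, scaling, test (edgeR 4.0.16, DESeq2 1.42.0), adjustment, membership, a replicate block and leaving out each library. The limma script was tested on simulated data. The members, gene lists, motifs and tests were chosen with earlier results of these data known. The rule for named genes took members with an adjusted p under 0.05 in the authors' table, those with fully separate libraries, the 8 largest changes each way among those whose higher group averaged 10 or more, and the 2 most abundant per class. LOC100125368, LOC102549842 and Zfp9 fell outside that rule and were named after their values were seen. The series text speaks of a larger number of replicates; the libraries in the files given here were used.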

Additional observations from a re-analysis of the deposited data

Results flagged for a closer look

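Dixon's criterion was applied to the 5 log2 values of each of the 27 genes in each genotype, 54 groups in all. A library met it when the gap to its nearest neighbour exceeded 0.71 of the range. It was met by 3 libraries, where chance at 1 in 20 gives about 2.7. Zfp7 in WT 5 stood at 20 scaled counts, above 6.22 to 8.13 in WT 1 to 4. Zfp711 in Cmg2-KO 5 stood at 75.9, below 114 to 120 in Cmg2-KO 1 to 4. Zfp335 in WT 2 stood at 804, below 960 to 1016 in the remaining WT libraries. No cause was tested.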

How the results depend on the processing

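The count of members past limma's adjusted threshold was 0 under every alternative run except adjustment over the listed genes alone. That gave 1, Zc3hav1 (adjusted p = 0.0478, limma), among genes already selected for the contrast. How many of all tested genes passed under that adjustment was not counted, so the 1 member has no share to be set against. The count at an unadjusted p under 0.05 was 21 and fell to 12 with quantile normalization (56.3% of all genes tested), and ranged from 12 (without Cmg2-KO replicate 5) to 19 with 1 library left out, where the share of all genes tested was 54.8% to 64.3%. The median log2 fold change of 0.19 became 0.13 with quantile normalization and ranged from 0.15 to 0.2 with 1 library left out, and 16 members were higher in all these fits. With the 11 members found by symbol alone, 7 had an unadjusted limma p under 0.05, 7 were higher and the median was 0.3. Over all genes tested, 79.1% had such a p, 48.2% were higher and the median was -0.15. Members with fully separate libraries, 0 as deposited, numbered 2 with TMM scaling (Zfp287 and Zc2hc1a), 3 with quantile normalization (Zmynd15, Zfp185 and Zcchc24) and between 1 and 6 with 1 library left out, the 6 without WT 3; of all listed genes 16.9%, 12.7% and 20% to 25.9% were separate under these. None of the 27 members changed direction in the alternatives in which it was tested, and Zc3hav1 in the adjustment above was the one that changed its side of the adjusted threshold. The causes were not tested. Same-numbered libraries had correlations of -0.016 to 0.087 in their deviations. The labels do not say what the number stands for, and low correlations cannot exclude a shared batch. With the replicate block, 0 members passed and 16 had an unadjusted limma p under 0.05 (68.7% of all genes tested), with a median of 0.19. Depth limits the members with few reads, LOC100125368, LOC102551539, Zbtb33 and Zfp7.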

Other observations

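The table also assigns the zf-C2H2 family to 4 genes outside the rule, Wt1 and 3 models without a description. AABR07035107.1, on chromosome 12, had a mean of 106 ± 23.4 scaled counts in WT against 144 ± 37.1 (SD, n = 5) in Cmg2-KO. AABR07007130.1, on chromosome 1, averaged 128 ± 15.3 and 101 ± 19.4. AABR07002870.1, also on chromosome 1, was at 1.02 to 5.19 in WT and at 0 to 1.04 in Cmg2-KO, with 3 Cmg2-KO libraries at 0.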
